A study of Homo sapiens with 6 samples.

Results

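The mitochondrial ribosomal protein genes are the nuclear genes that encode the proteins of the mitochondrial ribosome. They were taken as the protein-coding genes named MRPL or MRPS followed by a number, MRPL for the large subunit and MRPS for the small subunit, with an A, B or C allowed after an MRPS number. The rule found 78 genes, 49 of the large and 29 of the small subunit, among 19897 protein-coding genes and 62703 gene IDs in all. A further 88 IDs with such symbols were left out because they are not protein-coding (pseudogenes, antisense and divergent transcripts).

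The RNA came from SEM, a human cell line of B-cell acute lymphoblastic leukaemia (B-ALL) that carries the KMT2A::AFF1 fusion; total RNA was sequenced. In 3 libraries the cells had received a pair of Dicer-substrate siRNAs placed on the back-splice junction of the fusion circular RNA AK_8_2 (knock-down, KD), and in 3 they had received a commercial duplex with no target (negative control, NC). Both groups had a reverse and, 24 h later, a forward transfection with the same lipid reagent. All libraries come from 1 cell line, and a gene count does not measure the circle itself. Where a group has 3 values in a row, they belong to its replicates 1, 2 and 3 in this order.

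The mitochondrial ribosome translates the few messenger RNAs of mitochondrial DNA, which encode core parts of respiratory chain complexes and of ATP synthase. Its ribosomal RNAs, MT-RNR1 and MT-RNR2, are made inside the organelle, while all its proteins are made in the cytoplasm and imported. Many of the proteins have bacterial counterparts and others occur only in mitochondria. Names follow history more than structure: the MRPS18A and MRPS30 proteins lie in the large subunit, MRPL58 is a peptidyl-tRNA hydrolase built into the large subunit, and MRPS36 is now regarded as a part of the oxoglutarate dehydrogenase complex.

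Replicate 1 differed from replicates 2 and 3 in KD and NC alike. Reads outside annotated features were 50.03% of all records in KD replicate 1 and 48.6% in NC replicate 1, against 11.3% to 17.3% elsewhere, and gene counts per library ran from 14750579 to 26694160. KD replicate 3 carried 6.79% of its gene counts on MT-RNR1 and MT-RNR2, against 0.293% to 1.34% in the other 5. Of the B-cell leukaemia markers, PAX5, a B-cell transcription factor, stood at 850.2 to 1217 counts-per-million (CPM, on library sizes normalised by the TMM method) in KD and 915 to 1258 CPM in NC. EBF1, another such factor, stood at 237 to 347 CPM in KD and 243 to 345 CPM in NC, and CD79B, a part of the B-cell receptor, at 4.48 to 6.46 CPM in KD and 4.26 to 6.16 CPM in NC. DNTT, a marker of precursor cells, stood at 0.0393 to 0.619 CPM in KD and 0 to 1.74 CPM in NC. Of 5 T cell markers TRAC alone gave most of the sum of 76.7 to 92.8 CPM in KD and 82.5 to 87.1 CPM in NC. The 5 myeloid markers summed to 23.1 to 28.7 CPM in KD and 21.0 to 29.1 CPM in NC, the 5 erythroid markers to at most 2.76 CPM in KD and 2.80 CPM in NC, and the 5 epithelial or fibroblast markers to 4.99 to 23.9 CPM in KD and 3.70 to 23.4 CPM in NC. In the erythroid list and the epithelial or fibroblast list the highest value of each group was in replicate 1.

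The SEM cells expressed nearly all mitochondrial ribosomal protein genes at levels above those of most genes. In NC the median over the 78 genes of the mean level was 65.4 transcripts-per-million (TPM: counts divided by exon length and scaled per library over protein-coding genes). Between 92.3% and 93.6% of the 78 genes lay above the median protein-coding gene with a count in each of the 6 libraries. Together they took 0.381%, 0.405% and 0.382% of gene counts in KD, and 0.376%, 0.390% and 0.394% in NC. At least 1 count was found for 77 of the 78 in every library, and for all 78 in KD replicate 1.

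The large subunit genes had a median NC level of 65.8 TPM (interquartile range 41.4 to 99.3) and the small subunit genes 47.7 TPM (30.7 to 95.5), a ratio of 1.38. The interquartile ranges of the subunits overlapped over most of their length. With the longest transcript in place of the union of exons as gene length the ratio was 1.21, and with MRPS18A and MRPS30 placed in the large subunit the medians were 65.5 TPM (large) and 56.2 TPM (small). Without NC replicate 1 the medians were 68.4 TPM (large) and 49.7 TPM (small). In each case the medians of the subunits lay closer together than the NC quartiles of either one.

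MRPS34 (ENSG00000074071.15, chromosome 16, 1771890 to 1773155 in GRCh38), a small subunit protein that occurs only in mitochondrial ribosomes, had the highest level. It stood at 431, 477 and 436 TPM in KD and at 376, 400.5 and 452 TPM in NC. With the union of exons as gene length, no other gene of the set reached the lowest of these values in any library. With the longest transcript in its place, the highest mean NC levels were 320 TPM (small subunit) and 301 TPM (large subunit). The lead and the order at the top thus depend on the gene length used, and the union of exons is used here. Next in NC came the large subunit genes MRPL51 (247 ± 14.9 TPM), MRPL3 (239 ± 4.27), MRPL15 (214 ± 17.2), MRPL37 (195 ± 9.16) and MRPL33 (192 ± 9.93; SD, n = 3 for each). MRPL3 and MRPL15 have bacterial counterparts and MRPL51 and MRPL37 occur only in mitochondria. In this order MRPL51 and MRPL3 overlapped, as did MRPL15, MRPL37 and MRPL33, while the NC values of MRPL3 (237 to 244 TPM) lay above all those of MRPL15 (196 to 230 TPM). After MRPS34, the small subunit was led by MRPS26 (187 ± 26.9 TPM), MRPS18B (175 ± 31.2), MRPS16 (146 ± 7.34) and MRPS35 (144 ± 4.82; SD, n = 3 for each), and each of these overlapped its neighbour in the order.

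**Figure D1:**
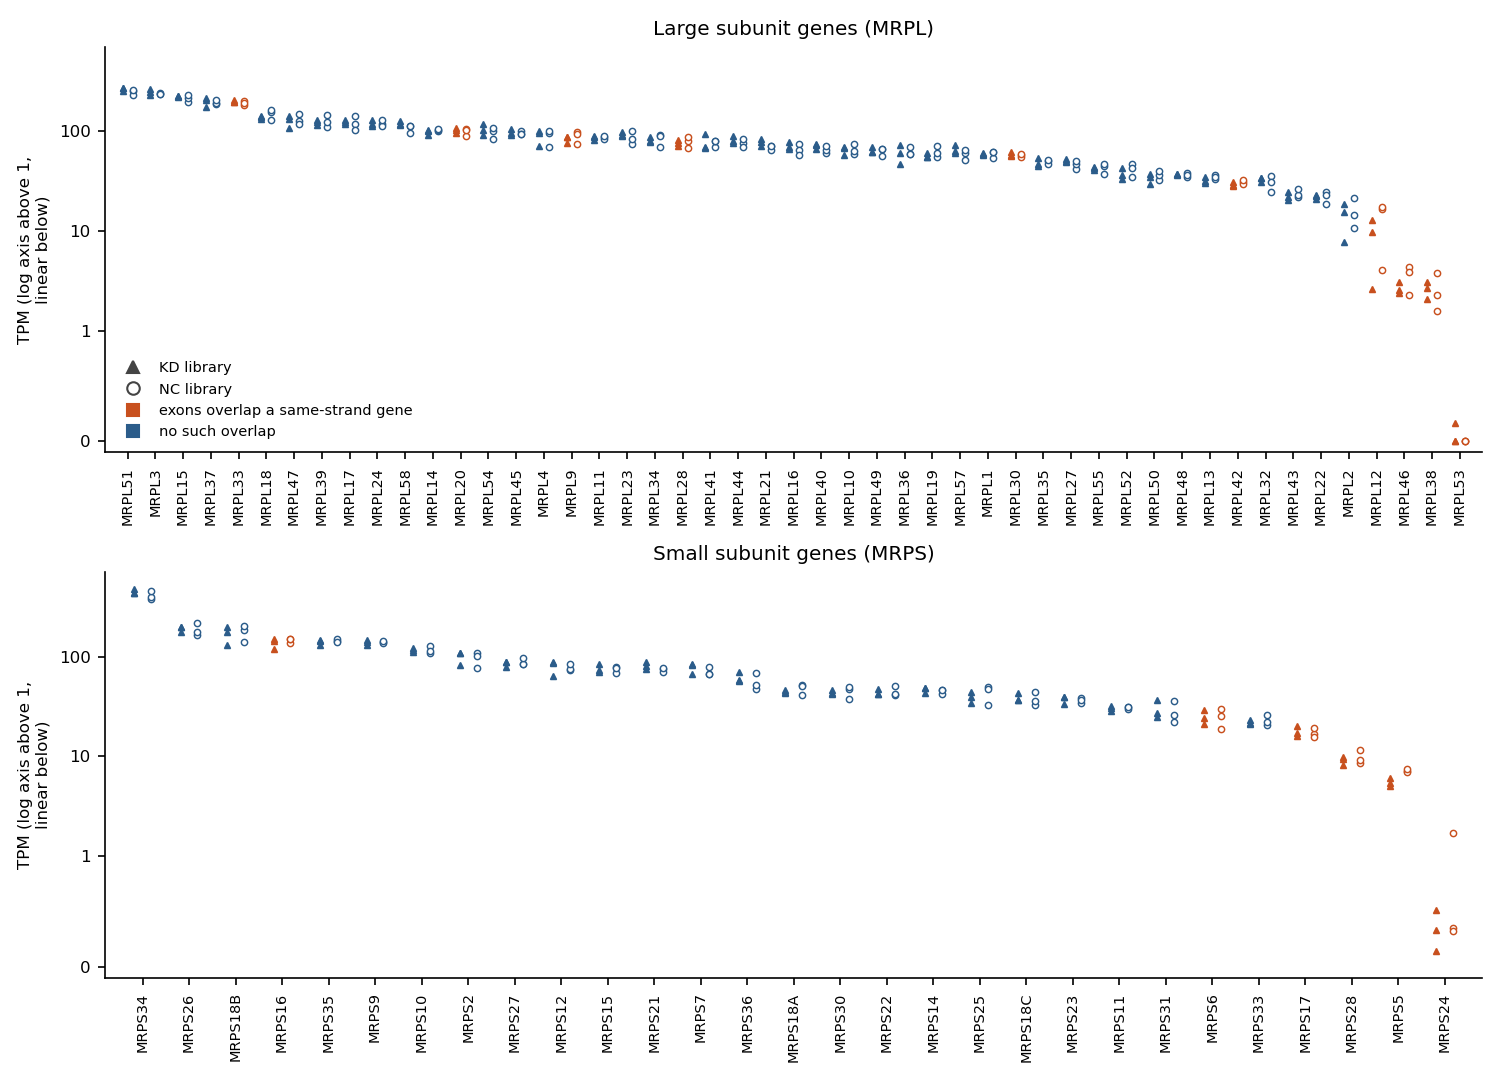
Level of each mitochondrial ribosomal protein gene in each library, in TPM on a log axis above 1 and a linear one below, KD libraries as filled triangles and NC libraries as open circles, ordered by the NC mean. Orange marks genes whose exons overlap those of a gene on the same strand; MRPS34 stands at 376 to 477 TPM, and 8 of the 10 lowest genes are orange.

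The 10 lowest genes ran from MRPL53 at 0 TPM in NC up to MRPL22. MRPL53, a large subunit gene, had 1 count in KD replicate 1 and 0 in the other 5 libraries, where a count of 0 allows up to 3 counts, or 0.118 to 0.187 CPM. MRPS24, a small subunit protein of a family found in bacteria, had 6, 6 and 2 counts in KD and 17, 6 and 5 in NC. These 2 genes did not pass the filter on low counts, which left 76 for testing, 48 of the large and 28 of the small subunit. MRPL38 (2.54 ± 1.14 TPM in NC), MRPL46 (3.50 ± 1.10), MRPS5 (7.19 ± 0.244), MRPS28 (9.77 ± 1.52), MRPL12 (12.8 ± 7.57), MRPL2 (15.5 ± 5.37) and MRPS17 (17.1 ± 1.83; SD, n = 3 for each) followed. Genes of both subunits were thus among the lowest, although their proteins belong to the same particle as those of MRPS34 and MRPL51.

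Low levels went with overlapping annotation. Of the 78 genes, 16 had exons that overlap those of another gene on the same strand in GENCODE 29, and their median NC level was 20.9 TPM, against 70.2 TPM for the 62 without. These 16 held 8 of the 10 lowest genes. For the 7 genes with at least 20% of their exon length overlapped the median was 9.77 TPM, and 6 of them were among the lowest 10. The exception was MRPL33, at 192 TPM with 21.1% of its exon length overlapped, the largest part by BABAM2.

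MRPL12 (ENSG00000262814.8, chromosome 17, 81703357 to 81707526), the counterpart of a bacterial stalk protein, had the largest overlapped share, 68.2%. The gene model with the largest part of it, AC139530.2, had 0 counts in all 6 libraries. The share was 45.2% in MRPL53, 37.5% in MRPL38, 35.8% in MRPS28 and 23.2% in MRPS24. The genes with the largest part of it were CCDC142, AC087289.3, AC036214.3 and URGCP-MRPS24, in this order. AC036214.3 and URGCP-MRPS24 also had 0 counts in every library. A read in exons of more than 1 gene can be set aside by the counting as ambiguous, and such reads made up 2.63%, 5.65% and 3.61% of records in KD and 2.58%, 5.94% and 4.55% in NC. The annotation and strand setting of the counting were not given in the sources used here, and the part of overlap in the low levels was not tested. Reads aligned to several places were set aside too (4.70% to 31.5% of records in KD and 4.90% to 17.3% in NC), which touches any gene with a near-identical pseudogene, and its part in the levels was not tested either. Overlap with a gene on the opposite strand alone, found for 25 genes, went with a median of 71.2 TPM. Among these were MRPL51 (31.3% of its exons, largest part NCAPD2), MRPS18A (47.0%, RSPH9) and MRPS18C (40.2%, ABRAXAS1). Their reads cannot be told apart there if strand was not used.

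Levels per length also depend on the gene model. MRPL42, chosen here after its values were seen, had 2035, 3574 and 2554 counts in KD and 1936, 3195 and 3197 in NC. These are as high as those of MRPL37 (1997, 3841 and 2826 in KD, 1825, 3273 and 3123 in NC), yet its level was 30.9 ± 1.60 TPM in NC (SD, n = 3). Its annotated exons span 16393 bases in union, against 2549 for MRPL37.

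The genes lie on 21 chromosomes, with 8 each on chromosomes 1, 2 and 17, 7 on chromosome 11 (all of the large subunit) and 6 on chromosome 6. Their starts often lie back to back with another gene. A protein-coding neighbour on the other strand starts within 1000 bases for 17 of the 78 (21.8%), against 7.39% of 19848 protein-coding genes and 9.99% of the 12242 tested. MRPL46 and MRPS11, 1 gene of each subunit, face away from each other on chromosome 15 with 34 bases between their starts. Complex I subunit genes are such neighbours of MRPL36 (NDUFS6, 34 bases) and MRPL47 (NDUFB5, 36 bases), and the helicase gene IGHMBP2 starts 7 bases from MRPL21. The neighbouring genes MRPL46 and MRPS11 did not share a level: MRPL46 had 3.07, 2.39 and 2.54 TPM in KD and 4.37, 3.87 and 2.26 TPM in NC, while MRPS11 had 30.5, 31.6 and 28.7 TPM in KD and 30.9, 29.8 and 31.4 TPM in NC.

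RefSeq promoter windows (GRCh38.p14, 250 bases before to 50 after the start) matched 69 of the 78 genes, and 4 strings were searched in them on both strands. AAGATGGCG, the core of the binding motif of YY1, a zinc-finger factor, was found in 13 of 69 windows (18.8%), against 2.80% of 15338 protein-coding windows and 4.09% of the 10023 of tested genes. CCGGAAGT, the core motif of ETS factors such as GABP, was found in 11 (15.9%), against 6.31% of all and 9.08% of tested windows, 9 of 42 in the large and 2 of 27 in the small subunit. GCATGCGC, a core part of the motif of NRF1, a factor known for control of respiratory genes, was found in 6 (8.70%), against 4.25% and 5.62%. TATAAA was found in 2 (2.90%), against 9.60% and 5.74%. None of the 4 strings was found in 43 windows. A match is a run of letters and not a measured binding site, and the median G and C content was 60.3% in these windows, 63.0% in all and 65.0% in those of tested genes.

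The YY1 string often lay just after the start. On the gene's own strand and within 50 bases after the start it was found in 10 of 69 windows (14.5%), against 1.81% of all and 2.66% of tested windows, with its first base 6 to 35 bases after the start base. The string also contains ATG, the letters of a start codon. The 10 sites are printed 5′ to 3′ on the gene's strand, 15 bases before and 6 after the string, which is in capitals, to show the string in genes of both subunits and the letters around it.
MRPL22, chr5:154941093-154941122, plus strand: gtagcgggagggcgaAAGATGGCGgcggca
MRPL38, chr17:75904864-75904893, minus strand: tcgcaggccggagggAAGATGGCGgcgccc
MRPL42, chr12:93467507-93467536, plus strand: gaccaggattgaaacAAGATGGCGggttcg
MRPL46, chr15:88467366-88467395, minus strand: attgtgggagaacgaAAGATGGCGgcgccc
MRPL50, chr9:101398581-101398610, minus strand: ccgtggatctcatcgAAGATGGCGgcgcga
MRPS10, chr6:42217838-42217867, minus strand: gaggtcgggaccggcAAGATGGCGgcgcgg
MRPS18A, chr6:43687768-43687797, minus strand: cagggtaggtttttgAAGATGGCGgccctc
MRPS18B, chr6:30617848-30617877, plus strand: tcctgggcgtacgtcAAGATGGCGgcgtct
MRPS24, chr7:43869484-43869513, minus strand: cgctccgcttggcccAAGATGGCGgcctcc
MRPS30, chr5:44808945-44808974, plus strand: ccggaatcgcgggcaAAGATGGCGgcggcc

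The genes with this string spanned a wide range of levels but not the highest, from MRPS24 at 0.787 TPM in NC to MRPS18B at 175 TPM. The 3 genes with the highest levels by union of exons, MRPS34, MRPL51 and MRPL3, had none of it, and each had 1 ETS string. This order depends on the gene length used, as stated above. The ETS string covered the whole range: it was also found in MRPL53, at 0 TPM in NC, and in MRPL38, at 2.54 TPM in NC. Of the genes next in level, MRPL15 had no matched window, and MRPL37, MRPL33 and MRPS26 had no ETS string. The 130 bases before the start of MRPS34, MRPL51 and MRPL3 are shown 5′ to 3′ on the gene's strand. The ETS string, on either strand, is in capitals.
MRPS34, chr16:1773135-1773264, minus strand: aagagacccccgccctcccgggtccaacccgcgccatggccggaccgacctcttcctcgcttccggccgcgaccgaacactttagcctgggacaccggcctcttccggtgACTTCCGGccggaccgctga
MRPL51, chr12:6493263-6493392, minus strand: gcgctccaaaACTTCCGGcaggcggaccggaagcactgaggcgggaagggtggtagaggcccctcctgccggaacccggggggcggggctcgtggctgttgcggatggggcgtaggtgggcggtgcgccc
MRPL3, chr3:131502972-131503101, minus strand: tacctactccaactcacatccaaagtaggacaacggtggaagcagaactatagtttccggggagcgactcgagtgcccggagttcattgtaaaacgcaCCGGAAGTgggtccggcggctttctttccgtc

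Between KD and NC the mitochondrial ribosomal protein genes differed little, and none passed the test. Their summed level was 3543, 4247 and 4251 CPM in KD, and 3444, 4105 and 4044 CPM in NC. Within each replicate number the KD sum lay slightly above the NC sum, by 0.041, 0.049 and 0.072 on the log2 scale, while both replicate 1 libraries lay below the other 4. No gene of the set passed the quasi-likelihood test of edgeR, adjusted over all 16929 tested genes by the Benjamini-Hochberg method, either with group as the only term (0 of 76 called, background 0%) or with the replicate number as a block (0 of 76 called, background 0.142% higher and 0.0295% lower in KD, 0.171% in all). With the block, the count of the set was also 0 without replicate 1, and without replicate 3, of both groups. In these bulk libraries, a change in the number of expressing cells and a change in RNA per cell cannot be told apart.

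The replicate block bears on how firmly this can be said. Without it 0 genes of any kind were called, with 52 of all tested genes at an unadjusted p under 0.05 (0.177% of the tested genes higher and 0.13% lower in KD). Of the set, 0 genes higher in KD and 1 lower, MRPS5, were among these; limma-voom called 0 genes and DESeq2 1, not of this set. With the block 29 genes were called. The paired 95% interval of the fold change lay inside a 1.5-fold change in either direction for 72 of the 76 genes, against 66.6% of all tested genes, and without the block for 66, against 50.7%. Among tested protein-coding genes alone, these shares were 83.9% with the block and 67.8% without it. For those 72 a change of 1.5-fold or more lay outside the paired interval.

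The set as a whole lay slightly above 0, which is given as a description with no test. With the block the median log2 fold change of KD over NC was 0.056, with an interquartile range of -0.0087 to 0.10 and a range of -0.58 to 0.21. The median of all tested genes was -0.0051. Above 0 lay 53 of the 76 (69.7%), 33 of 48 in the large and 20 of 28 in the small subunit, against 48.0% of all tested genes. Within pairs the medians were 0.035, 0.057 and 0.052 in pairs 1, 2 and 3, with 45, 52 and 50 of the 76 higher in KD. KD was above NC in all 3 pairs for 25 of 76 (background 13.1%) and below in all 3 for 6 (background 12.6%). At an unadjusted p under 0.05 in the paired fit stood 13 genes higher in KD (background 2.90%) and 2 lower (background 2.07%), and the smallest adjusted p among all 76 was 0.534.

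Genes for the other ribosome of the cell also lay above 0. The 81 tested genes for cytoplasmic ribosomal proteins had a median of 0.080 in the paired fit, with 68 above 0 (84.0%, against 48.0% of all tested genes) and 3 called higher in KD (background 0.142%); without the block 0 of them were called. Across genes, the Spearman correlation of exon length with the paired fold change was -0.23 over the 76 genes and -0.18 over 12242 tested protein-coding genes, so shorter genes stood slightly higher in KD in both. It was 0.025 within the 81 cytoplasmic ribosomal protein genes and -0.023 over the 16266 tested genes of any type with a length. The part of length in these differences was not tested. Without the block and with 1 library left out, the median of the 76 ran from -0.024 (without KD replicate 2) to 0.13 (without KD replicate 1), and that of all tested genes from -0.11 to 0.11. The genes tested in these fits numbered 17195 to 31605, so the medians of all tested genes are not over the same genes. With the block the median of the 76 was 0.035 to 0.064 when a replicate number was left out.

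**Figure D2:**
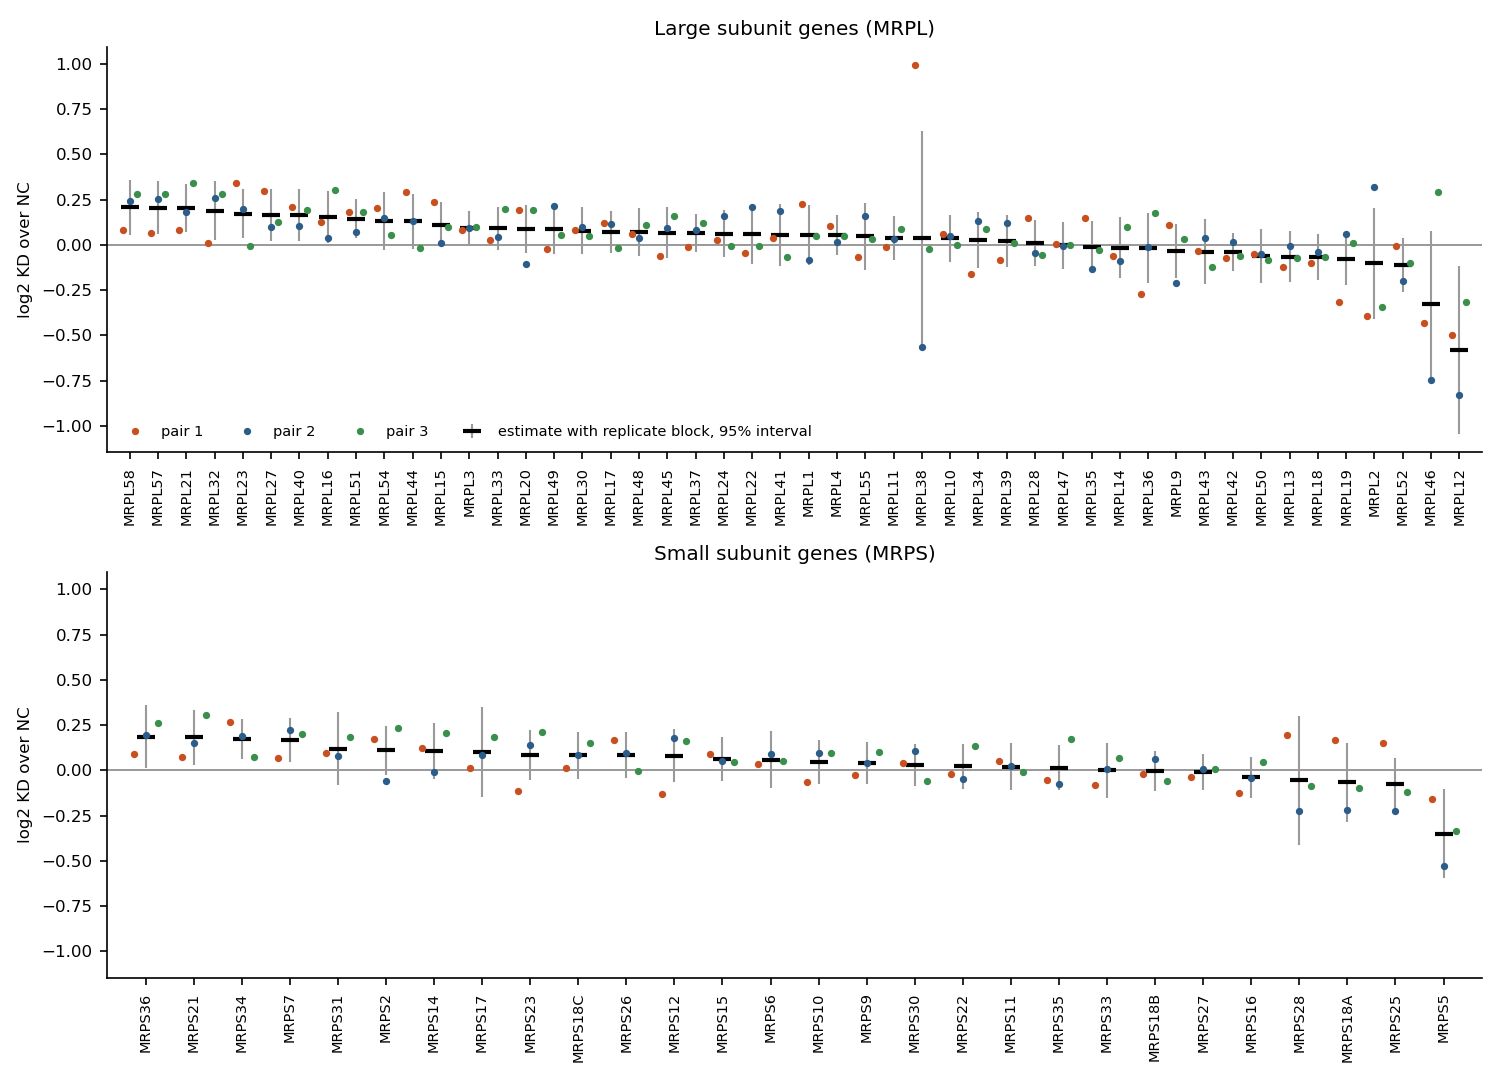
Log2 fold change of KD over NC for the 76 tested mitochondrial ribosomal protein genes, large subunit above and small subunit below. Black bars are paired estimates with 95% intervals in grey, and dots are the differences within pairs 1, 2 and 3; the central quartiles of the estimates lie between -0.0087 and 0.10, and MRPL12, MRPS5 and MRPL46 are the lowest.

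The ratio of large to small subunit summed CPM, which is not divided by gene length, overlapped between KD and NC. Large subunit genes summed to 2178, 2591 and 2586 CPM in KD and to 2104, 2494 and 2464 CPM in NC. Small subunit genes summed to 1365, 1656 and 1665 CPM in KD and to 1341, 1611 and 1580 CPM in NC. The ratio of these sums was 1.60, 1.56 and 1.55 in KD and 1.57, 1.55 and 1.56 in NC, so the groups overlapped. The paired medians were 0.056 (large) and 0.051 (small), and within pairs 0.031, 0.056 and 0.050 (large) and 0.038, 0.057 and 0.084 (small). With MRPS18A and MRPS30 in the large subunit the ratio of sums was 1.77, 1.71 and 1.70 in KD and 1.74, 1.69 and 1.73 in NC.

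**Figure D3:**
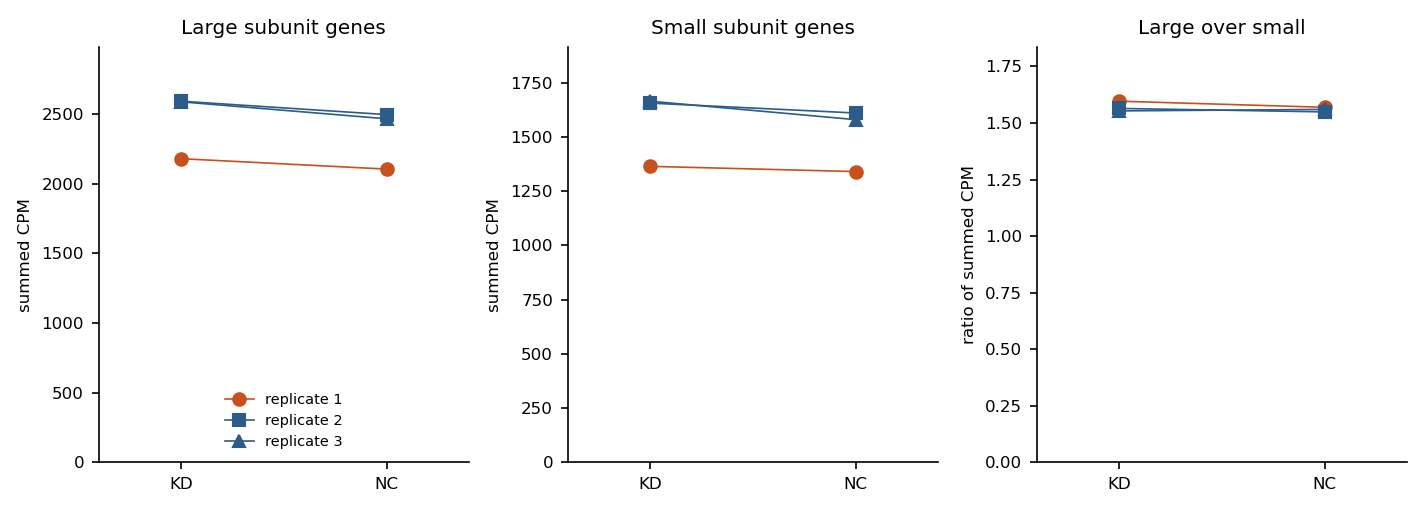
Summed CPM of the large subunit genes (left) and small subunit genes (middle) and the ratio of the sums (right), KD left of NC, with a line joining the libraries that share a replicate number. The replicate 1 libraries lie lowest in both sums, and all 6 ratios lie between 1.55 and 1.60.

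Among genes higher in KD, those with the smallest paired p, none of which passed, had differences near 0.2. MRPS34 had 118, 144 and 136 CPM in KD and 98.5, 127 and 130 CPM in NC. It was higher in KD in 3 of 3 pairs, though the groups overlapped. Its paired log2 fold change was 0.17 ± 0.052 (SE; edgeR adjusted p 0.534). MRPL21, a protein with a bacterial counterpart, had 50.5, 60.1 and 67.0 CPM in KD and 47.6, 53.1 and 52.9 CPM in NC, a paired change of 0.21 ± 0.064 (SE; edgeR adjusted p 0.560). MRPL57 and MRPS7 followed, with paired changes of 0.21 and 0.17 and edgeR adjusted p of 0.697 and 0.724. The peptidyl-tRNA hydrolase MRPL58 had 31.9, 35.9 and 39.6 CPM in KD and 30.1, 30.4 and 32.5 CPM in NC, and its paired change was also 0.21 (edgeR adjusted p 0.731). MRPL51 came after it, with a paired change of 0.15 (edgeR adjusted p 0.749).

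In 3 genes all KD values lay above all NC values, against 1.67% of all tested genes. MRPL51 (ENSG00000111639.8, chromosome 12, 6491886 to 6493841) had 105.4, 108 and 119 CPM in KD and 92.9, 103 and 105.1 CPM in NC. The others, MRPL32 and MRPL16, were named after their values were seen. MRPL32, which must be cut by a mitochondrial protease before it joins the ribosome, had 30.1, 30.2 and 34.4 CPM in KD and 29.9, 25.2 and 28.3 CPM in NC. MRPL16, a protein with a bacterial counterpart, had 43.9, 43.6 and 42.7 CPM in KD and 40.2, 42.5 and 34.6 CPM in NC. The gap between the nearest KD and NC libraries was narrow in each.

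MRPS5 (ENSG00000144029.14, chromosome 2, 95087207 to 95149434), a small subunit protein of a bacterial family, was the only gene with all KD values below all NC values (background 1.77%). It had 182, 238 and 198 counts in KD and 184, 311 and 300 in NC, which is 10.3, 9.35 and 10.4 CPM in KD and 11.4, 13.5 and 13.1 CPM in NC. The log2 fold change was -0.35 ± 0.13 without the block (SE; 95% interval -0.64 to -0.050) and -0.35 ± 0.12 with it (SE; edgeR adjusted p 0.670), so it did not pass. Same-strand genes overlap 8.19% of its exon length, the largest part by ZNF514.

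MRPL12 and MRPL46 had the next smallest p among genes lower in KD, and both rest on few counts. MRPL12 had 12, 70 and 72 counts in KD and 16, 114 and 108 in NC. It was lower in KD within each number, and its paired log2 fold change was -0.58 ± 0.22 (SE; edgeR adjusted p 0.866). Without the block and with 1 library left out it ran from -0.13 (without KD replicate 1) to -1.07 (without KD replicate 3). MRPL46 had 88, 108 and 89 counts in KD and 108, 165 and 87 in NC, so it was lower in KD in 2 of 3 pairs, with a paired change of -0.33 ± 0.19 (SE; edgeR adjusted p 0.999). The paired change was -0.095 without replicate 2 and -0.61 without replicate 3 of both groups, and without the block it ran from -0.15 (without NC replicate 2) to -0.57 (without NC replicate 3). The remaining genes named for low p, MRPL52, MRPL18 and MRPS25, had paired changes of -0.11, -0.068 and -0.077. MRPS11, which shares its start region with MRPL46, had a paired change of 0.020.

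Of the MRPS18 paralogues, related proteins of which each ribosome holds all 3, MRPS18B differed in level from the others more than between groups. MRPS18A had 43.9, 46.3 and 43.3 TPM in KD and 41.0, 51.7 and 50.5 TPM in NC. MRPS18B had 132, 200.2 and 178 TPM in KD and 141, 184 and 202 TPM in NC. MRPS18C had 42.6, 36.5 and 36.3 TPM in KD and 44.3, 33.0 and 35.7 TPM in NC. MRPS18B thus stood above both others in every library, while MRPS18A stood above MRPS18C in all but NC replicate 1. The paired log2 fold change of MRPS18B was -0.0052, against -0.065 for MRPS18A and 0.084 for MRPS18C. None passed.

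In CPM, the difference between replicate 1 and replicates 2 and 3 was larger than that between KD and NC. It went the same way in both groups. The median log2 CPM of the 76 genes was lower in replicate 1 by a difference of -0.24, and 65 of 76 (85.5%) were lower there, against 48.7% of all tested genes (median 0.013) and 56.5% of tested protein-coding genes (median -0.060). The cytoplasmic ribosomal protein genes had a median of -0.32. MRPL12 had the lowest value, -2.14, followed by MRPL2 (-1.08), a protein near the catalytic centre of the large subunit, and MRPS18B (-0.66). MRPL2 had 88, 332 and 212 counts in KD and 105, 240 and 324 in NC. At the other end MRPS31, MRPL46 and MRPS6 were higher in replicate 1, by 0.35, 0.25 and 0.21. Both replicate 1 libraries also had the high share of reads outside features given above, and the part of that share in these values was not tested. The shift depended on the scale, and in TPM replicate 1 was lowest in KD only. The median of the set was 65.5, 69.4 and 70.9 TPM in KD and 67.4, 64.3 and 70.2 TPM in NC.

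**Figure D4:**
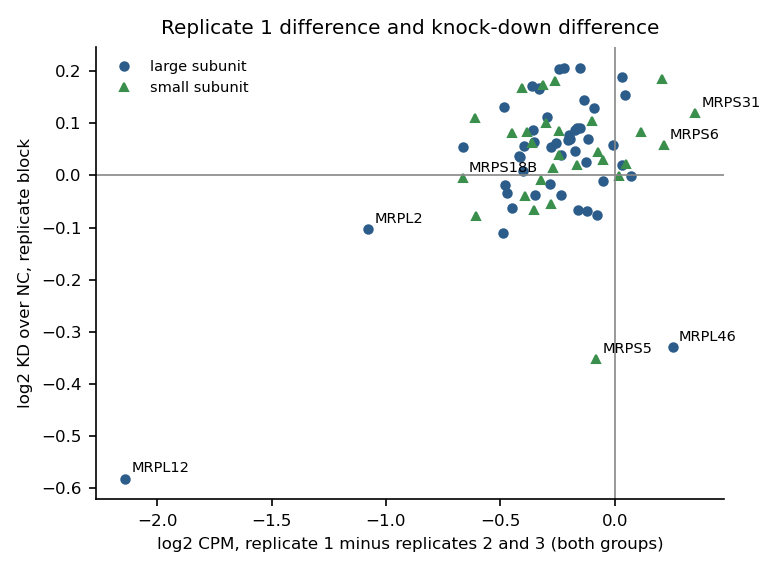
Paired log2 fold change of KD over NC against the log2 CPM difference of replicate 1 from replicates 2 and 3, averaged over both groups, for the 76 tested genes. Most points lie left of 0, MRPL12 at -2.14 and MRPL2 at -1.08 farthest, and the spread along the replicate axis exceeds that along the knock-down axis.

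Genes that work with the mitochondrial ribosome gave 0 calls in either fit. The background was 0% without the block and 0.171% with it, so few calls could be looked for in lists of this size. All 5 mitochondrial ribosomal proteins with other symbols were above 0 in the paired fit (median 0.059), but none passed. GADD45GIP1, a large subunit protein, had 90.1, 133 and 132 CPM in KD and 76.0, 106 and 123 CPM in NC, and a paired change of 0.22 (edgeR adjusted p 0.209), and CHCHD1, a small subunit protein, one of 0.19 (edgeR adjusted p 0.814). Of 26 assembly factors 24 were tested, 11 above and 13 below 0 (median -0.015), with NGRN, which binds the large mitochondrial ribosomal RNA, at -0.35 and the assembly GTPase MTG1 at -0.29 (edgeR adjusted p 0.755 and 0.907). Of 16 translation factors, all tested, 10 were above and 6 below 0 (median 0.037). In all 3 pairs, 2 of them lay above NC (background 13.1%) and 5 below (background 12.6%). Their medians within pairs were -0.016, -0.015 and 0.083. Lowest were TACO1 at -0.50 and MTRF1 at -0.42 (edgeR adjusted p 0.909 and 0.833), both named after their values were seen. Both stood at low levels. TACO1 had 2.20, 3.97 and 2.31 CPM in KD and 3.61, 4.26 and 4.02 CPM in NC. MTRF1 had 5.46, 4.83 and 6.25 CPM in KD and 7.83, 7.52 and 6.65 CPM in NC. SLIRP, which stabilises mitochondrial messenger RNAs with LRPPRC, had 132, 152 and 165 CPM in KD and 112, 129 and 145 CPM in NC, a paired change of 0.21 (edgeR adjusted p 0.135). The elongation factor gene TUFM had a paired change of 0.14 (edgeR adjusted p 0.578).

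The mitochondrial ribosomal RNAs themselves varied far more than the protein genes. MT-RNR1 had 680, 2466 and 12894 CPM in KD and 755, 2844 and 4181 CPM in NC. MT-RNR2 had 2045, 6122 and 62564 CPM in KD and 2362, 9913 and 9510 CPM in NC. Both were lower in KD in pairs 1 and 2 and higher in pair 3, where the difference was 1.62 (MT-RNR1) and 2.72 (MT-RNR2) on the log2 scale, and neither passed. In pair 3 the sum of the protein genes differed by 0.072, as stated above.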

How the data were processed

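Total RNA libraries of SEM cells, 3 KD and 3 NC, were grouped by their titles. The deposited files hold read counts per Ensembl gene as the authors wrote them. The submitters' processing notes name the hg38 build, HTSeq 0.11.1, STAR 2.7.10a, FastQC 0.11.8 and DESeq2; annotation release and strand setting were not given in the sources used here. The 5 summary lines that name no gene stayed out of library sizes and tests; gene counts made up the other 33.5% to 60.2% of records. Libraries of a group differed beyond sampling noise (20.2 to 82.0 chi-square units per degree of freedom). No label says that replicates came from separate cultures beyond calling them independent, so p-values measure the spread between these libraries.

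Symbols were found for 62639 of 62703 IDs. Coordinates, exon lengths and overlaps come from GENCODE 29 (GRCh38), which held 58264 IDs and all 78 genes. Tests used edgeR 4.0.16 in R 4.3.3 (filterByExpr with a minimum count of 10, TMM, robust quasi-likelihood F test, Benjamini-Hochberg adjusted p under 0.05) with group as the only term. CPM uses TMM-scaled library sizes over tested genes, and log2 CPM a prior count of 2. DESeq2 1.42.0 and limma 3.58.1 were alternatives, with left-out replicates, other size factors and no filter. The fit was checked on simulated counts. Groups share replicate numbers: deviations from group means correlated at 0.89, 0.62 and 0.61 between KD and NC libraries 1, 2 and 3, above the limit of 0.1, so paired values stand beside the others. The labels state no pairing, and KD replicate 2 correlated with NC replicate 3 at 0.59 and KD replicate 3 with NC replicate 2 at 0.55. These pass the limit too, so the check set replicate 1 apart but could not tell how replicates 2 and 3 pair.

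The genes, lists and tests were chosen with earlier results of these data known. Named were the 5 highest and 3 lowest genes of each subunit by NC TPM, the 6 with the smallest paired p in each direction, the 3 with the largest and the 3 with the smallest replicate 1 difference, the MRPS18 paralogues, the 2 smallest p of each related list and the ribosomal RNAs. Of the 14 markers in the B-cell leukaemia list 4 are given; the others, and the sum of the list, are not reported here.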

Additional observations from a re-analysis of the deposited data

How the results depend on the processing

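Under the alternatives run, 0 mitochondrial ribosomal protein genes were called, and the replicate block changed no call among them. Over all 16929 tested genes, DESeq2 called 1 and the replicate block 29 (also with DESeq2 size factors). The other fits tested other numbers of genes. With no filter the block called 68 of 56716. Without replicate 1, 2 or 3 of both groups it called 5 of 16344, 119 of 29982 and 73 of 29966. Without the block, leaving out 1 library at a time gave medians of -0.024 to 0.13 for the set (large subunit -0.027 to 0.14, small subunit -0.022 to 0.11, large minus small -0.018 to 0.025), and uncalled genes changed sign: MRPL2 ranged over -0.40 to 0.23, MRPL3 -0.0086 to 0.17, MRPL15 -0.0089 to 0.19, MRPL18 -0.16 to 0.028, MRPL37 -0.037 to 0.20, MRPL38 -0.28 to 0.51, MRPL52 -0.28 to 0.066, MRPS6 -0.039 to 0.13, MRPS16 -0.15 to 0.11, MRPS18A -0.22 to 0.075, MRPS18B -0.19 to 0.19, MRPS25 -0.31 to 0.10, MRPS26 -0.055 to 0.22, MRPS28 -0.19 to 0.095 and MRPS35 -0.066 to 0.14. With the block and without replicate 1 the set's median was 0.064, MRPL38 -0.33, MRPS18B 0.0039 and MRPS16 0.0024; without replicate 2 the median was 0.035 (also large subunit), MRPS28 0.022 and MRPS18A 0.0080; without replicate 3 MRPS18B was 0.028, MRPS35 -0.062 and MRPL2 0.064. Dropping replicate 1 of both groups without the block, chosen after seeing the data, gave 0.065 for the set, 0.067 for the large subunit, -0.35 for MRPL38, 0.0049 for MRPS18B and 0.0019 for MRPS16. No filter gave 0.041 for the set and -0.033 for MRPL38, and MRPS18B was 0.0021 with DESeq2 size factors and 0.0023 with DESeq2. The NC median was 49.0 TPM (large) and 35.4 TPM (small) with all genes in the total, also chosen after seeing the data, and 54.8 TPM (small) with a ratio of 1.21 with the longest transcript; leaving out an NC library gave 46.3 to 49.7 TPM (small) and ratios of 1.37 to 1.47. The cause of these shifts was not tested. Low counts limit the precision for MRPL12, MRPL38, MRPL46 and MRPS28.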
